A study of Mus musculus with 6 samples.

Results

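The RAS-ERK cascade was followed in hematopoietic stem cells (HSCs) through 7 genes chosen by symbol. These were the RAS genes Nras and Hras, the RAF kinase gene Braf, the MEK genes Map2k1 and Map2k2, the ERK1 gene Mapk3 and the feedback phosphatase gene Dusp6. All 7 had a row among the 21878 deposited gene rows, and all 7 were high enough to be tested. The methods define HSCs as Lineage-, Sca-1+, c-Kit+ cells without Flt3 and CD34, here sorted from the bone marrow (BM) of wild-type (WT) mice. C57BL/6 mice are named there, and the age of the animals is not given in the sources used here. Controls received vehicle, and treated mice received recombinant mouse IGF1 under the skin at a dose of 200 µg/kg, with cells taken on day 1, as the study's methods and legends state. Each group held 3 RNA-seq libraries, and no source says whether a library came from 1 mouse or from pooled mice. A protocol text in the labels speaks of irradiation instead of IGF1, so the groups here follow the titles and the treatment labels.

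IGF1 binds a receptor tyrosine kinase that feeds both the PI3K-AKT-mTOR branch and the RAS-ERK branch. In the latter, adaptors bring exchange factors to the membrane, RAS proteins load GTP and recruit RAF kinases, RAF kinases phosphorylate the MEK kinases, and these phosphorylate ERK. ERK then drives transcription of, among others, DUSP6, which dephosphorylates ERK and closes a feedback loop. In HSCs this cascade carries signals of cytokine receptors such as KIT. It works through phosphorylation, so transcript levels say how much of each component could be made and not how active it was.

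Values were FPKM, that is, fragments scaled for gene length and library size. The test was limma on log2(FPKM + 1) over the 10449 genes that reached 1 FPKM in 3 or more libraries. Calls needed the study's thresholds, a change of over 2-fold and a Benjamini-Hochberg adjusted p under 0.05. Depth, estimated from the steps of the values, was about 11.3 to 16.1 M reads per library, and the 7 genes had between 283 and 2531 reads each. Libraries of 1 group differed by little more than counting error, with a mean chi-squared per gene of 1.5 between control replicates 1 and 3 and of 1.67 to 1.9 among IGF1 libraries. The exception was control replicate 2, with a mean chi-squared of 253 to replicate 1 and 255 to replicate 3. It differed over 2-fold from these in 3396 and 3415 genes, but from the IGF1 libraries in 347 to 381 genes. Among the 6619 genes in which IGF1 lay over 0.5 on the log2 scale from control replicates 1 and 3, this library stood at a median of 81% of the way to the IGF1 mean. The fold changes of the 7 genes, the shares and the called pathway genes are therefore given with and without it. P-values of the fit without control replicate 2 may measure mostly technical spread. In the fit to all 6 libraries its gap is part of the spread, as in Mapk3, with an SD of 13.6 FPKM in controls and 0.585 in IGF1.

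The gate was checked against marker genes, as summed FPKM of fixed lists. All 9 HSC markers summed were above 0 in the data, with sums of 370.0 to 692 in controls and 441 to 456 in IGF1. Kit stood at 104 to 105 FPKM in control replicates 1 and 3, at 31.4 in replicate 2 and at 24.2 to 24.6 in IGF1. Mecom (4.1 and 3.49, then 0.672, then 1.12 to 1.16 FPKM) and Tek (4.06 and 3.76, then 0.699, then 0.642 to 0.839) also fell. Slamf1 went from 2.41 and 1.76 to 0.736 and then 0.741 to 1.26. Fgd5 was at 1.32 to 1.68 in controls and 0.277 to 0.459 in IGF1. Other members went other ways: Ly6a, most of the sum, was at 219 and 231 FPKM in control replicates 1 and 3, 615 in replicate 2 and 374 to 387 in IGF1. Hlf was at 8.88 to 11.8 FPKM in all 6 libraries. Gfi1b was at 11.9 to 14.2 in controls and 15.1 to 17.1 in IGF1, and Procr at 11.5 to 18.7 and 13.4 to 15.3. Cd34, which the gate leaves out, was at 634 to 640 FPKM in control replicates 1 and 3, 265 in replicate 2 and 230 to 238 in IGF1. Flt3, also left out, was at 117 FPKM in control replicates 1 and 3, 172 in replicate 2 and 183 to 188 in IGF1. RNA of both was thus present although the gate leaves out cells with these surface proteins. The 6 B cell markers summed to 90.6 to 295 in controls and 295 to 311 in IGF1, and the 5 megakaryocyte and platelet markers to 51.8 to 74.5 and 93.1 to 104. Of the latter, Pf4 was at 15.1 to 15.6 FPKM in control replicates 1 and 3, 48.6 in replicate 2 and 63.1 to 73.7 in IGF1. Itga2b went the other way, at 32.2 to 32.3, then 16.8, then 17.9 to 19.3 FPKM. The 9 neutrophil and monocyte markers summed to 2280 to 2450 and 2450 to 2460, mostly from Mpo, and the 7 erythroid markers to 36.1 to 103 and 48.2 to 55.3. The 5 T and NK cell markers (358 to 777 and 769 to 788) were almost wholly Nkg7, with Cd3e at 0 to 0.206, and the 6 stromal and endothelial markers (17.9 to 35.4 and 21.6 to 22.7) almost wholly Pecam1. Within the neutrophil and monocyte list members moved in opposite directions. Elane was at 92.4 to 92.8 FPKM in control replicates 1 and 3, 576 in replicate 2 and 692 to 709 in IGF1, while Ngp was at 78.2 to 79.0, then 11.5, then 2.22 to 3.73 FPKM, and S100a8 at 284 to 285, then 163, then 55.0 to 72.8 FPKM. No list had a marker at 0 in all 6 libraries. The part of other cells in the results below was not tested, and in bulk RNA fewer cells of a type and less RNA per cell cannot be told apart.

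The promoters of 5 of the genes are shown because paralogues differed in direction in the results, so that their regulatory sequences can be read side by side. The sequences are the 250 bases before the RefSeq transcription start (build GRCm38.p6), 5′ to 3′ on the gene's strand. Short motifs were searched on both strands, and their matches stand in capitals: GGGCGG, the GC box of SP and KLF factors; CCAAT, of NF-Y; TGACGTCA, the full cyclic AMP element; CACGTG, an E-box; CCGGAAG, of ETS factors; and GTAAACA, of forkhead factors. RefSeq gave a promoter for 6 of the 7 genes, with Mapk3 not among them.
Nras, chr3:103058035-103058284, plus strand: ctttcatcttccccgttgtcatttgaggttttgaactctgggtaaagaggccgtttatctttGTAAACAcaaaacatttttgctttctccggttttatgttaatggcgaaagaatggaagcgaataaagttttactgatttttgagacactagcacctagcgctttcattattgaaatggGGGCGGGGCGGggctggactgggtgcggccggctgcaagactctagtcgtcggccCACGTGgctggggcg
Hras, chr7:141194005-141194254, minus strand: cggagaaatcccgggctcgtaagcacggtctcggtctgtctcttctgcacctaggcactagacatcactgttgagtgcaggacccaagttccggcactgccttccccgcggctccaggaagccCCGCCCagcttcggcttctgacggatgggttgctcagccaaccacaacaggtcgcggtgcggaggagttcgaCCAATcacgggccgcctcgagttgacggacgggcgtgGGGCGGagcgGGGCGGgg
Map2k1, chr9:64253606-64253855, minus strand: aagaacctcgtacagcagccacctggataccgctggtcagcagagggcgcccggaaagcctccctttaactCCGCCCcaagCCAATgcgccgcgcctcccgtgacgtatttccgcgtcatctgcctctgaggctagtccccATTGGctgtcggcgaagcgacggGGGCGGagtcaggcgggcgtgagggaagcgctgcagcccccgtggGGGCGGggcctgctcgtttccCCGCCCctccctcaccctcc
Map2k2, chr10:81105665-81105914, plus strand: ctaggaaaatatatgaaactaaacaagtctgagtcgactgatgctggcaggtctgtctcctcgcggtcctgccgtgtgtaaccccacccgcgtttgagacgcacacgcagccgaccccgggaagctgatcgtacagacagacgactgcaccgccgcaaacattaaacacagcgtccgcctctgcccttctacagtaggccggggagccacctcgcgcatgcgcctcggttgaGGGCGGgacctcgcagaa
Braf, chr6:39725464-39725713, minus strand: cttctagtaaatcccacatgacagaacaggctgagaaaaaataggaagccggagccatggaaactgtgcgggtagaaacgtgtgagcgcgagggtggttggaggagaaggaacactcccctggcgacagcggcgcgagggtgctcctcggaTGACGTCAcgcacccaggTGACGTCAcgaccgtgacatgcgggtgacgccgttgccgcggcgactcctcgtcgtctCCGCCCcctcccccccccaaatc

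The windows differed within each pair of paralogues. Nras had a GC content of 48.4%, 2 GC boxes that share 1 base, an E-box starting 15 bases before the start and a forkhead match at 188 bases, whereas Hras had a GC content of 65.6%, 3 GC boxes and 1 CCAAT. Map2k1 (68.4% GC) held 4 GC boxes and 2 CCAAT matches, and Map2k2 (59.6% GC) held 1 GC box and no CCAAT. Braf held the cyclic AMP element in 2 copies, starting 99 and 81 bases before the start. Dusp6, not shown, held 1 CCAAT and no other motif at 56.4% GC. Of 32851 promoters of this length, 32.7% held GGGCGG, 33.8% CCAAT, 1.55% TGACGTCA, 6.02% CACGTG, 6.91% CCGGAAG and 3.17% GTAAACA, and their median GC content was 52.4%. A match describes these letters only.

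By limma 0 of the 7 genes were called between IGF1 and control, and 0 by voom on the recovered reads. Of all genes tested 6.61% were called, 1.98% higher and 4.63% lower (207 and 484 genes). With libraries scaled to a common 75th percentile the split was 300 higher and 259 lower. An unadjusted p under 0.05 was reached by 5 of the 7 (Nras, Map2k1, Map2k2, Mapk3 and Dusp6), and by 53.4% of all genes tested. An adjusted p under 0.05, whatever the fold, was reached by 0 of the 7 and by 20.4% of all genes, 6.26% higher and 14.1% lower. The groups did not overlap in 4 of the 7 genes, with Map2k2 and Mapk3 higher and Nras and Map2k1 lower in every IGF1 library, against 59.4% of all genes tested (21.9% with IGF1 higher, 37.4% with IGF1 lower).

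**Figure D1:**
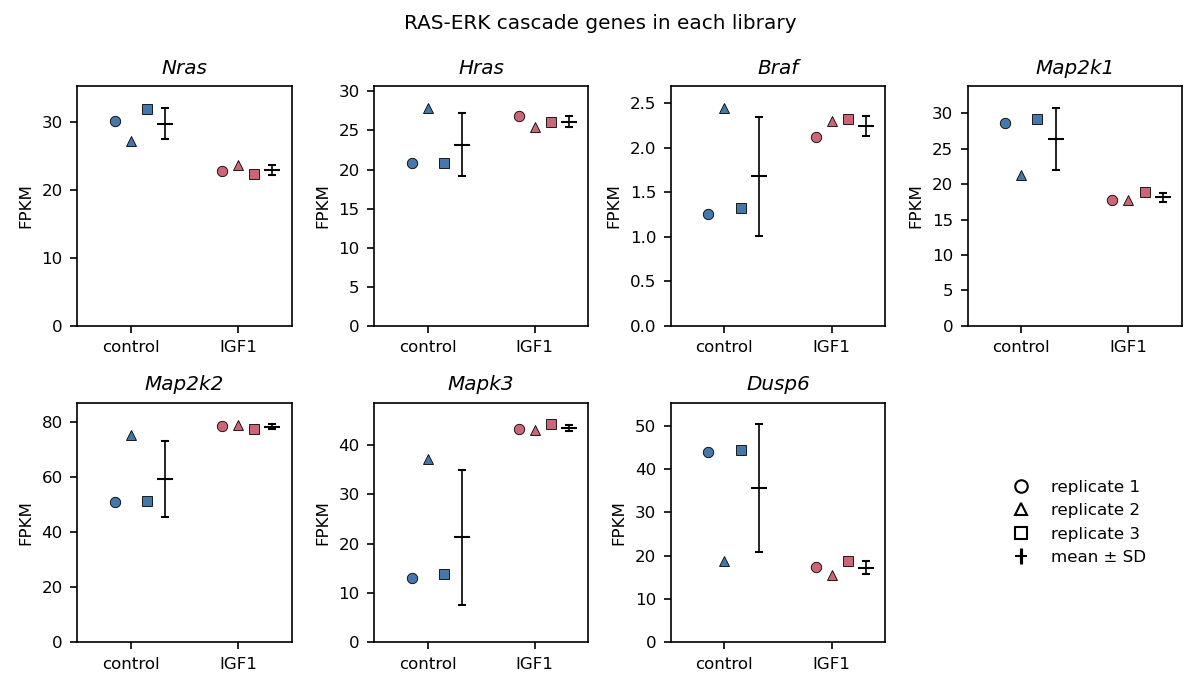
FPKM of the 7 genes in each library, with control in blue and IGF1 in red, marker shapes for replicate numbers, and the group mean with its SD (n = 3) in black; each vertical axis starts at 0. In Mapk3, Map2k2 and Dusp6 the blue triangle of control replicate 2 (37.1, 75.2 and 18.7 FPKM) sits near the IGF1 points and away from the other controls.

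Nras and Hras encode membrane-bound GTPases that switch the cascade on, and each has a coding length of 567 bases. Nras lies at chr3:103058285-103067914 (GRCm38), with a longest transcript of 4470 bases and 42.6% GC, and Hras at chr7:141189105-141194005, with 2828 bases and 55.2% GC. In control replicates 1 to 3 Nras was at 30.2, 27.3 and 31.9 FPKM, and in IGF1 replicates 1 to 3 it was at 22.8, 23.7 and 22.4. Every IGF1 library was below every control, and control replicate 2 was the lowest control. Means were 29.8 ± 2.28 and 23.0 ± 0.677 FPKM (SD, n = 3), a log2 fold change of -0.36 with a standard error (SE) of 0.10 (limma, adjusted p = 0.0523). Hras went from 20.8, 27.9 and 20.9 FPKM in controls to 26.9, 25.4 and 26.1 FPKM in IGF1. Control replicate 2 was the highest of the 6, so the groups overlapped, and the log2 fold change was 0.18 (limma, SE 0.14, adjusted p = 0.314). With trends on transcript length and GC content removed, Nras changed direction to 0.08 (adjusted p = 0.547), while Hras was at 0.19 (adjusted p = 0.361).

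Braf encodes a RAF kinase, the link from RAS to MEK, at chr6:39603237-39725463 over 22 exons of its longest coding transcript. It was the lowest of the 7 genes, at 1.26, 2.45 and 1.33 FPKM in controls and 2.12, 2.3 and 2.32 FPKM in IGF1. Control replicate 2 was again the highest library. The counting intervals (exact Poisson, 95%, counting error only) were 1.12 to 1.42 in control replicate 1 and 2.22 to 2.71 in control replicate 2, and did not overlap. Its log2 fold change was 0.30 (limma, SE 0.18, adjusted p = 0.205), on a scale that understates low genes. The exons of Braf share 146 of 13862 bases with Ndufb2 on the opposite strand, and no source states whether counting used strand.

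Map2k1 and Map2k2 encode MEK1 and MEK2, the dual-specificity kinases that phosphorylate ERK, and the pair had opposite signs. Map2k1 (chr9:64185770-64253631) was at 28.6, 21.3 and 29.2 FPKM in controls and at 17.8, 17.7 and 18.9 FPKM in IGF1. All IGF1 libraries were below all controls, and the log2 fold change was -0.50 (limma, SE 0.15, adjusted p = 0.054). Map2k2 (chr10:81105915-81133975) was the highest of the 7 genes, at 51.0, 75.2 and 51.5 FPKM in controls and 78.4, 79.1 and 77.3 FPKM in IGF1. All IGF1 libraries were above all controls, control replicate 2 by the narrowest margin, with a log2 fold change of 0.42 (limma, SE 0.17, adjusted p = 0.0928). Map2k1 has a longest transcript of 2436 bases with 51.2% GC and Map2k2 one of 2405 bases with 60.4% GC. Without the length and GC trends Map2k1 was at -0.38 and Map2k2 at 0.12.

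Mapk3 encodes ERK1, a terminal kinase of the cascade, at chr7:126759601-126765819. Its 9-exon transcript of 1800 bases and 57.6% GC is the shortest of the 7. In control replicates 1 to 3 it was at 13.1, 37.1 and 13.8 FPKM, and in IGF1 at 43.2, 43.1 and 44.2 FPKM. The IGF1 libraries were within 1.1 FPKM of each other, while the controls fell into 2 low libraries and 1 near the IGF1 level. The ratio of means was 2.04 and the log2 fold change 1.15 (limma, SE 0.39, adjusted p = 0.0666), above that of 95% of genes tested but short of the adjusted p threshold. Without control replicate 2 it was 1.62 and passed (adjusted p = 3.12e-10). Without the length and GC trends it was 0.73 (adjusted p = 0.0884).

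Dusp6 encodes a cytoplasmic phosphatase that acts on ERK and is itself an ERK target gene, at chr10:99263231-99267489. Controls held 43.8, 18.7 and 44.4 FPKM and IGF1 libraries 17.4, 15.6 and 18.7 FPKM. Control replicate 2 was level with IGF1 replicate 3, so the groups met, and the other controls stood well above. The means were 35.6 ± 14.7 and 17.2 ± 1.58 FPKM (SD, n = 3), with a log2 fold change of -0.91 (limma, SE 0.34, adjusted p = 0.0794). Leaving out control replicate 2 gave -1.31, which passed (adjusted p = 3.21e-08). Single-gene permutation tests were exact and 2-sided, and cannot go below p = 0.1 with 3 libraries against 3. They gave p = 0.1 (exact permutation) for Nras, Map2k1, Map2k2 and Mapk3, p = 0.2 for Dusp6 and p = 0.4 for Hras and Braf.

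The order of levels per length, by mean FPKM, differed between the groups. In controls it ran Map2k2 (59.3), Dusp6 (35.6), Nras (29.8), Map2k1 (26.4), Hras (23.2), Mapk3 (21.3) and Braf (1.68), and from Dusp6 to Mapk3 the neighbours overlapped between libraries. In IGF1 it ran Map2k2 (78.3), Mapk3 (43.5), Hras (26.1), Nras (23.0), Map2k1 (18.1), Dusp6 (17.2) and Braf (2.25). Here only Map2k1 and Dusp6 overlapped. By these means Mapk3 stood next to last in controls and next to the top in IGF1. Among the controls, replicate 2 alone had the IGF1 order. In it Mapk3 (37.1 FPKM) stood below only Map2k2 (75.2), and Dusp6 (18.7) above only Braf (2.45).

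Leaving out control replicate 2 left the direction of all 7 genes as it was and raised each change: -0.42 for Nras, 0.31 for Hras, 0.50 for Braf, -0.64 for Map2k1, 0.60 for Map2k2, 1.62 for Mapk3 and -1.31 for Dusp6. All 7 then had an adjusted p under 0.05, as did 88.5% of all genes tested (34.9% higher, 53.6% lower). Mapk3 and Dusp6, 2 of the 7, were then called, against 32.9% of all genes (12.3% higher, 20.6% lower). Control replicate 2 stood, on the way from the other controls to the IGF1 mean, at 42% for Nras, 66% for Map2k1, 86% for Mapk3 and 91% for Map2k2 and Dusp6. In Braf and Hras it went past the IGF1 mean, at 118% and 129%. The median of all genes was -0.18 on the log2 scale. With libraries scaled to a common 75th percentile this median was 0.04, and the fit gave -0.11 for Nras, 0.42 for Hras, 0.46 for Braf, -0.26 for Map2k1, 0.67 for Map2k2, 1.40 for Mapk3 and -0.67 for Dusp6.

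**Figure D2:**
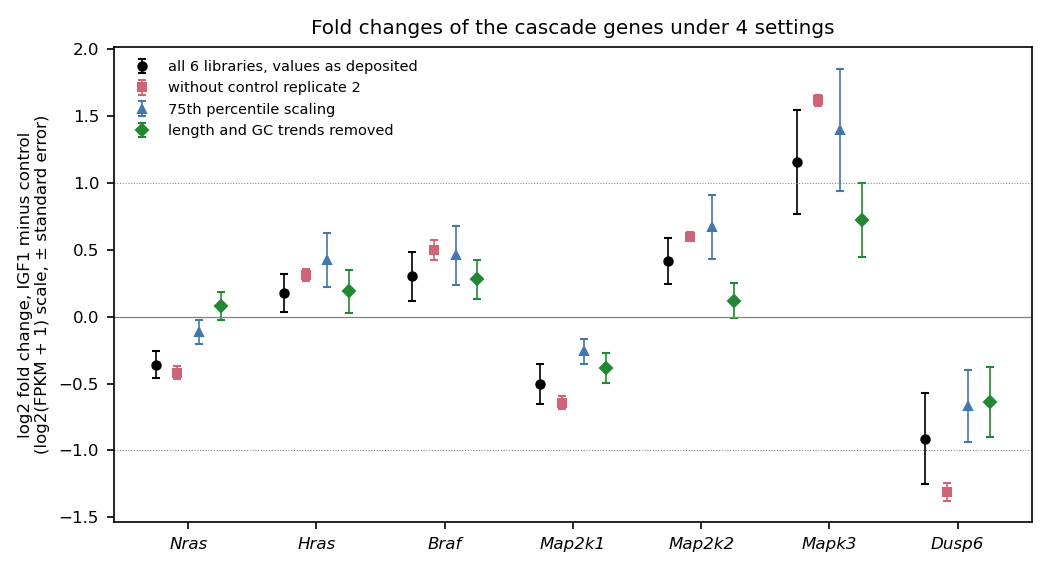
Log2 fold change (IGF1 minus control, log2(FPKM + 1) scale) of the 7 genes with its standard error, for all 6 libraries as deposited, without control replicate 2, after 75th percentile scaling and with length and GC trends removed; dotted lines mark a 2-fold change. Nras is the gene whose point crosses 0, at 0.08 with the trends removed, and Mapk3 stays the highest in each setting.

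Within a library, the share of 1 paralogue in the summed FPKM of its family does not depend on how libraries are scaled. Hras made up 40.8%, 50.5% and 39.6% of Nras and Hras in the controls and 54.1%, 51.7% and 53.8% in IGF1. The IGF1 shares were all higher, by 9.58 percentage points on average (exact permutation p = 0.1, 2-sided), by 13 points without control replicate 2 and by 1.99 points with the length and GC trends removed. Map2k2 made up 64.1%, 77.9% and 63.8% of the MEK genes in controls and 81.5%, 81.7% and 80.3% in IGF1. This was 12.6 points higher (exact permutation p = 0.1) without overlap, 17.2 points higher without control replicate 2 and 6.95 points higher with the trends removed.

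**Figure D3:**
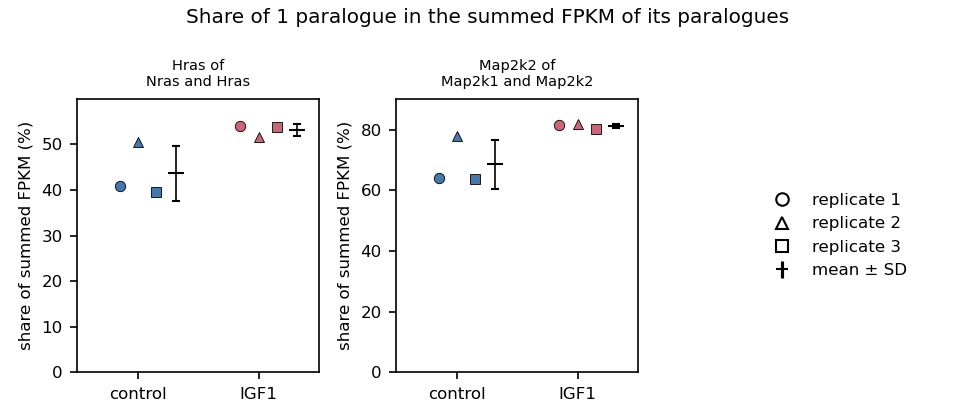
Share (%) of Hras in the summed FPKM of Nras and Hras, and of Map2k2 in that of Map2k1 and Map2k2, by library, with the group mean and SD (n = 3) in black and axes from 0. The Map2k2 share goes from 64.1% and 63.8% in control replicates 1 and 3, through 77.9% in control replicate 2, to 80.3% to 81.7% in IGF1.

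The sum of the MEK genes was added after the values were seen. Map2k1 and Map2k2 together held 79.6, 96.5 and 80.7 FPKM in controls and 96.3, 96.7 and 96.2 FPKM in IGF1. Control replicate 2 was at the IGF1 level, so the groups overlapped (0.18 on the log2 scale, exact permutation p = 0.3, 2-sided). Without that library the difference was 0.27. Araf, a paralogue of Braf, was at 24.4 to 26.7 FPKM in all 6 libraries (-0.08, adjusted p = 0.436 from limma).

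The rest of the pathway was described with lists of 112 genes sorted by role, of which 111 had a row and 92 could be tested. Of these 92, 3 were called higher and 3 lower, 6.52% in all beside 6.61% of all genes tested. Their median log2 fold change was -0.21 beside -0.18, and 0.01 beside 0.04 with libraries scaled to their 75th percentile. Without control replicate 2, 10 were called higher and 17 lower, 29.3% in all, near the 32.9% of all genes in that setting.

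Of 14 adaptors and exchange factors tested, 1 was called higher and 1 lower (14.3%, beside 6.61% of all genes tested). Rasgrp2, an exchange factor for RAS-like GTPases, rose from 17.4, 34.0 and 17.1 FPKM to 46.3, 44.2 and 45.3 FPKM (1.03, SE 0.27, adjusted p = 0.0481 from limma). Crk, an SH2-SH3 adaptor, fell from 21.6, 12.7 and 21.4 FPKM to 8.33, 8.20 and 7.99 FPKM (-1.06, adjusted p = 0.0382). In both, control replicate 2 lay between the groups, which did not overlap. Among 7 RAS GTPase-activating proteins, which switch RAS off, Rasa4 rose from 15.6, 28.4 and 16.4 FPKM to 42.8, 44.7 and 45.6 FPKM (1.15, adjusted p = 0.0376). Rasal1 was at 0.788 to 1.14 FPKM in controls and 1.81 to 2.21 FPKM in IGF1 (0.58, adjusted p = 0.0366), short of a 2-fold change on this scale. Of 5 other RAS-family GTPases 0 were called by limma and 0 by voom, with 4 at an unadjusted p under 0.05 (all genes 53.4%), and Rap1a (-0.48, adjusted p = 0.0391) and Rras2 (-0.68, adjusted p = 0.0446) had the smallest adjusted p.

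Scaffolds and the enzymes that lipidate RAS gave 1 called gene each, both lower, of 9 tested in each list (11.1%, beside 6.61% of all genes). Shoc2, the scaffold of the phosphatase complex that primes RAF, fell from 11.3, 5.13 and 11.7 FPKM to 3.63, 3.32 and 3.75 FPKM (-1.11, adjusted p = 0.0499 from limma, at the edge of the threshold). Lamtor3, a MEK1 partner on late endosomes, was at 65.0, 69.8 and 62.6 FPKM in controls and 43.7, 47.0 and 44.9 FPKM in IGF1 (-0.53, adjusted p = 0.035). Control replicate 2 was the highest library in Lamtor3, on the side away from IGF1. Golga7, the partner of a RAS palmitoyltransferase, fell from 94.4, 50.9 and 95.4 FPKM to 36.8, 37.5 and 38.0 FPKM (-1.02, adjusted p = 0.0459). Fnta, the alpha subunit of farnesyltransferase, was at -0.40 (adjusted p = 0.0472).

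Besides Dusp6, 10 other feedback inhibitors were tested and 0 were called by limma and 2 by voom, which called 10.1% of all genes. An unadjusted p under 0.05 was reached by 5 and an adjusted one by 3, against 53.4% and 20.4% of all genes. Dusp16, a phosphatase that prefers JNK, was at 1.36, 1.2 and 1.25 FPKM in controls and 0.284, 0.345 and 0.364 FPKM in IGF1 (-0.77, adjusted p = 0.0286). Control replicate 2 stood 8% of the way to IGF1 in this gene, close to the other controls. Spred3, an inhibitor of RAS activation of RAF, was at 0.0659, 0.628 and 0.14 FPKM in controls and 1.21 to 1.43 FPKM in IGF1 (0.87, adjusted p = 0.0369). Dusp16 and Spred3 stayed under a 2-fold change only on the log2(FPKM + 1) scale, with ratios of means of 0.261 and 4.67.

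Of 21 ERK substrates and target genes tested, 1 was called by limma and 4 by voom (4.76% and 19%), beside 6.61% and 10.1% of all genes tested. An unadjusted p under 0.05 was reached by 12, or 57.1%, against 53.4% of all genes. Of the 21, 10 lay above 0 and 11 below. Targets without a call went both ways, such as Fos (-0.52) and Egr1 (-0.42) below 0 and Ier2 (0.46) and Junb (0.27) above it. Phlda1, an immediate early gene of growth factor signalling, rose from 0.575, 1.95 and 0.445 FPKM to 3.35, 3.07 and 2.58 FPKM (1.08, adjusted p = 0.0484 from limma). The ERK-activated kinase gene Rps6ka3 (RSK2) was at 7.92, 5.70 and 7.74 FPKM in controls and 2.95, 3.12 and 3.04 FPKM in IGF1. Its log2 fold change of -1.0 (adjusted p = 0.0287) missed the fold threshold narrowly on the log2(FPKM + 1) scale, while the ratio of means was 0.427. Rps6ka4 (MSK2) was at 8.11, 7.84 and 8.61 FPKM in controls and 4.54, 3.69 and 4.68 FPKM in IGF1 (-0.80, adjusted p = 0.0307). Both had groups that did not overlap, and in Rps6ka4 control replicate 2 was the lowest control by a small margin.

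**Figure D4:**
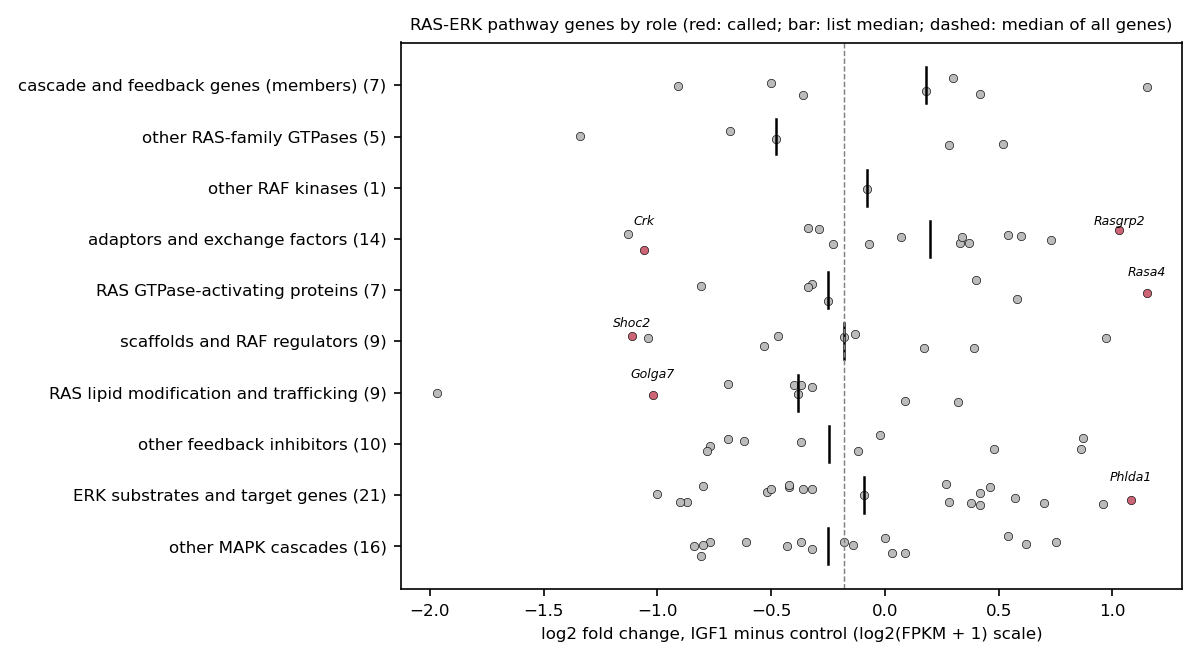
Log2 fold change (IGF1 minus control, log2(FPKM + 1) scale) of each tested pathway gene, 1 row per role with the number tested in brackets; red points are called genes, black bars list medians, and the dashed line the median of all genes (-0.18). The 6 red points are Crk, Shoc2 and Golga7 on the left and Rasgrp2, Rasa4 and Phlda1 on the right, and most lists spread to both sides of the dashed line.

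Crk, Rasgrp2, Rasa4, Shoc2, Golga7 and Phlda1 each lost the call when any 1 library other than control replicate 2 was left out. In each of these settings 0 of all genes tested were called higher and 0 lower, so this loss is not particular to these genes. Without control replicate 2 all 6 were called, as were 32.9% of all genes tested. The 6 log2 fold changes were then -1.3 for Crk, 1.34 for Rasgrp2, 1.42 for Rasa4, -1.46 for Shoc2, -1.32 for Golga7 and 1.4 for Phlda1. Over all alternatives Shoc2 lost the call most often, in 14 of 19, with a log2 fold change between -1.46 and -0.58. Golga7 lost it in 12 of 19, Phlda1 in 12 of 18 (0.43 to 1.96), Crk and Rasgrp2 in 11 of 19 and Rasa4 in 6 of 19 (1.0 to 1.43).

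Genes with the profile nearest to each of the 7 were found by the Euclidean distance between centred log2(FPKM + 1) values over the 6 libraries. The nearest to Mapk3 was Cox6b1, a subunit of cytochrome c oxidase (distance 0.0603), at 523, 1390 and 523 FPKM in controls and 1600, 1630 and 1610 FPKM in IGF1. Both genes share the step of control replicate 2 toward the IGF1 level. The nearest to Dusp6 was Rdh13 (0.0886), at 9.65, 3.86 and 10.6 FPKM and then 3.62, 3.21 and 3.83 FPKM. The nearest to Nras was Glo1 (0.0324), to Hras Eif2s2 (0.0176), to Braf Gmnn (0.0387), to Map2k1 Tpm3 (0.0511) and to Map2k2 Srp9 (0.0369). Such distances, over 6 libraries of which 1 stands apart, describe likeness of profile only.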

How the data were processed

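RNA-seq of sorted BM HSCs was used, from 3 control and 3 IGF1 libraries. The authors trimmed reads with fastp and quantified genes. The paper's methods name RSEM, while the submitters' processing notes list HISAT2, StringTie and the builds GRCm38 and mm10. The authors deposited 1 FPKM value per gene row and library, with 2 symbols on more than 1 row. The values are whole multiples of the worth of 1 read in all 15640 genes above 0 (tolerance 0.01 reads), which gave the reads per gene. Depth is approximate: it is the most frequent value over 1069 single-transcript genes, met by 25.9% of them.

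Values were compared with limma 3.58.1 in R 4.3.3 (lmFit, eBayes with a trend) on log2(FPKM + 1), for the 10449 genes that reached 1 FPKM in 3 or more libraries, called at a fold over 2 and an adjusted p under 0.05. The fit was tested on simulated data. Exact permutation tests used scipy 1.17.1. Length and GC content came from GENCODE M21 (longest transcript), found for 96.7% of genes tested, and their spline trends were removed per library in 1 alternative. TMM-like scaling was coded for FPKM. Promoters came from RefSeq. The other alternatives are given in the closing section.

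Members and lists were chosen with earlier results of these data known. Genes named were all members, the nearest profile to each, and in each list the called genes or, with fewer than 2, also the 2 with the smallest adjusted p. Single markers, and Fos, Egr1, Ier2 and Junb among the target genes, were named outside this rule. The replicate numbers were not taken to pair libraries. Some listed genes, and shares that need them, are not reported here.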

Additional observations from a re-analysis of the deposited data

How the results depend on the processing

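Between 11.3 and 16.1 M reads per library left counting error small beside the gap of control replicate 2. Of the 7 genes, Hras, Map2k1 and Map2k2 kept their direction and side of the threshold in 13 of 13 alternatives other than left-out libraries, and Braf in 12 of 12, since a minimum of 5 FPKM left it untested. Nras reversed to 0.08 with length and GC trends removed. Library weights, which gave control replicate 2 a weight of 0.0137, put Mapk3 (1.62) and Dusp6 (-1.31) past the threshold. Leaving out 1 library gave -0.42 to -0.31 for Nras, 0.11 to 0.31 for Hras, 0.19 to 0.50 for Braf, -0.64 to -0.43 for Map2k1, 0.33 to 0.60 for Map2k2, 0.91 to 1.62 for Mapk3 and -1.31 to -0.71 for Dusp6. The shares kept their direction, at 7.57 to 13 points (Hras) and 10.2 to 17.2 (Map2k2). Over all genes, leaving out 1 library gave 0 to 1281 called higher and 0 to 2157 lower, and over the other pathway genes 0 to 10 and 0 to 17. The highest counts were those without control replicate 2. Against 207 genes higher and 484 lower as deposited, 75th percentile scaling gave 300 and 259, TMM-like scaling 297 and 261 and quantile normalization 301 and 303, each with 0 of the other pathway genes lower. The pathway median reversed to 0.01 after 75th percentile scaling. It was -0.03 after TMM-like scaling, -0.06 with no filter, -0.33 with library weights and -0.34 to -0.14 with 1 library left out, lowest without control replicate 2. Counts of genes higher and lower were 127 and 293 with the trends removed (pathway 1 and 0), 1276 and 2159 with library weights (10 and 17), 109 and 265 with no filter (1 and 1), 66 and 157 with a pseudocount of 5 (1 and 0), and 654 and 1476 by adjusted p alone (10 and 11). Voom called 381 higher and 676 lower (pathway 6 and 5), and a pseudocount of 0.1 gave 5 pathway genes lower. With a replicate block limma called 0 higher and 0 lower (pathway 0 and 0), while 680 and 1100 passed the fold at an unadjusted p under 0.05. Deviations of same-numbered libraries from their group means correlated at -0.06, -0.05 and 0.01. These values cannot decide on pairing, because the gap of control replicate 2 makes up most of the control deviations. The numbers were not taken as pairs. The cause of these moves was not tested.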

Other observations

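Of 16 tested genes of the other MAPK cascades (JNK, p38 and ERK5), 0 were called by limma and 1 by voom, with 6 at an unadjusted p under 0.05. Of all genes tested voom called 10.1%, and 53.4% had an unadjusted p under 0.05. Map2k7, which encodes a kinase of JNK, was at 5.88, 7.72 and 7.20 FPKM in controls and 12.2, 10.4 and 11.0 FPKM in IGF1, a log2 fold change of 0.62 (adjusted p = 0.0415 from limma). Map3k2, an upstream kinase of ERK5 and JNK, was at 0.827, 1.81 and 0.874 FPKM in controls and 2.64, 2.39 and 2.70 FPKM in IGF1 (0.75, adjusted p = 0.0459, ratio of means 2.2). In neither gene did the groups overlap, as in 59.4% of all genes tested. Of the 112 listed pathway genes, 20 were too low to be tested or had no row.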
